A study of Mus musculus and Homo sapiens with 12 samples.

Results

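The unperturbed blood progenitors of a mouse and a human experiment were set side by side, as 6 control libraries of 12 in all: 3 of mouse LK WT cells and 3 of human H1-HSC shNC cells, chosen by their labels. LK cells lack lineage antigens and carry Kit, the receptor for stem cell factor. They were sorted as live cells from E13.5 fetal liver (E counts embryonic days), with Gr1, Cd11b, CD3, B220 and Ter119 as the lineage antigens, from embryos of genotype Ddx21f/f, in which loxP sites flank both copies of Ddx21 and no Cre recombinase is named. The human cells came from the embryonic stem cell line H1 through a commercial blood differentiation kit, were transduced with the lentivirus shNC-mCherry, which carries a control hairpin and a red fluorescent marker, and were sorted 2 days later as live CD34+, CD45+, CD43+ cells with the hairpin marker. Every human library thus derives from 1 cell line and 1 virus, and the labels do not say whether replicates came from separate embryos or separate cultures, so p-values measure the spread between these libraries only, which may be technical. Species, fetal liver against culture, the 2 sorting gates and the virus all change together and cannot be told apart.

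Genes were matched 1 to 1 by symbol, which gave 9925 genes of the 55487 mouse and 78932 human genes counted. Symbols come from the deposited normalized tables, which name 11908 mouse genes, each with counts in every mouse library, and 14931 human genes, so a gene silent in mouse is matched only where its symbol was completed from the annotation. Levels are in TPM over the matched genes, which are counts divided by the deposited gene length and set to a common total per library, then scaled between libraries by TMM factors, edgeR's trimmed mean of log ratios. Values of genes found by completing mouse symbols, described as outside the match, come from a separate fit over 11995 genes. That fit has its own total and TMM factors, so its levels are not on the scale of the main match. Differences are log2 of human over mouse, with a standard error (SE). A mean is given ± SD over the 3 libraries of a group. A gene was called where edgeR's quasi-likelihood test gave a Benjamini-Hochberg adjusted p under 0.05 and the levels lay at least 4-fold apart.

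Blood stem cells and their early progeny share a set of transcription factors (GATA2, RUNX1, TAL1, LMO2, FLI1) whose balance with lineage factors such as GATA1 and KLF1 for red cells, or SPI1 for myeloid cells, directs the choice of fate. In the mouse fetal liver at midgestation, Kit+ progenitors divide fast and most feed red cell production. Blood cells of the embryo arise from hemogenic endothelium, a vessel lining that expresses KDR, CDH5 and TEK, and differentiation of pluripotent cells passes through the same stage.

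Total counts were 21116079 to 23182524 in the mouse and 15289510 to 18763464 in the human libraries, of which matched genes held 94.8% in mouse and 87.5 to 87.7% in human. Mouse replicate 3 stood apart within its group. Its counts differed from those of replicates 1 and 2 by a chi-square per degree of freedom of 20.9 and 14.4, against 2.10 between replicates 1 and 2 and 1.62 to 1.81 among the human libraries. Between species, log2 levels of the matched genes correlated with r of 0.595 to 0.606, and within a group with r of 0.9925 to 0.9982, across matched genes, which are not independent replicates. Of 9923 genes tested, 1523 (15.3%) were called higher in human and 1151 (11.6%) higher in mouse, 26.9% in all. The adjusted p alone marked 90.3% of genes, 44.6% as higher in human and 45.6% as higher in mouse, and the 2 groups did not overlap for 91.1%, so these shares are the background for every count below. The median difference over all genes tested was -0.01, and 4400 genes (44.3%) lay within 2-fold. For a single gene the smallest two-sided exact permutation p that 3 against 3 libraries allow is 0.10.

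Exon overlap between neighbouring genes moved with the difference, as the plot of differences by exon overlap shows. Matched genes with no exon shared on their own strand in the human table (8231 genes) had a median difference of 0.06. The median was -1.52 for 186 genes with over 30 to 60% of their exon length shared and -2.62 for 44 genes with over 60%. In the mouse table the same 2 ranges held 63 and 20 genes, with medians of 1.25 and 1.69. Called genes described below carry the percentage where, in the species with the lower level, more than 10% of their exon length is shared on either strand. The part of exon overlap in single results was not tested. Among the 5329 genes tested with at most 5% shared in both tables, 16.4% were called higher in human and 9.74% higher in mouse.

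**Figure D1:**
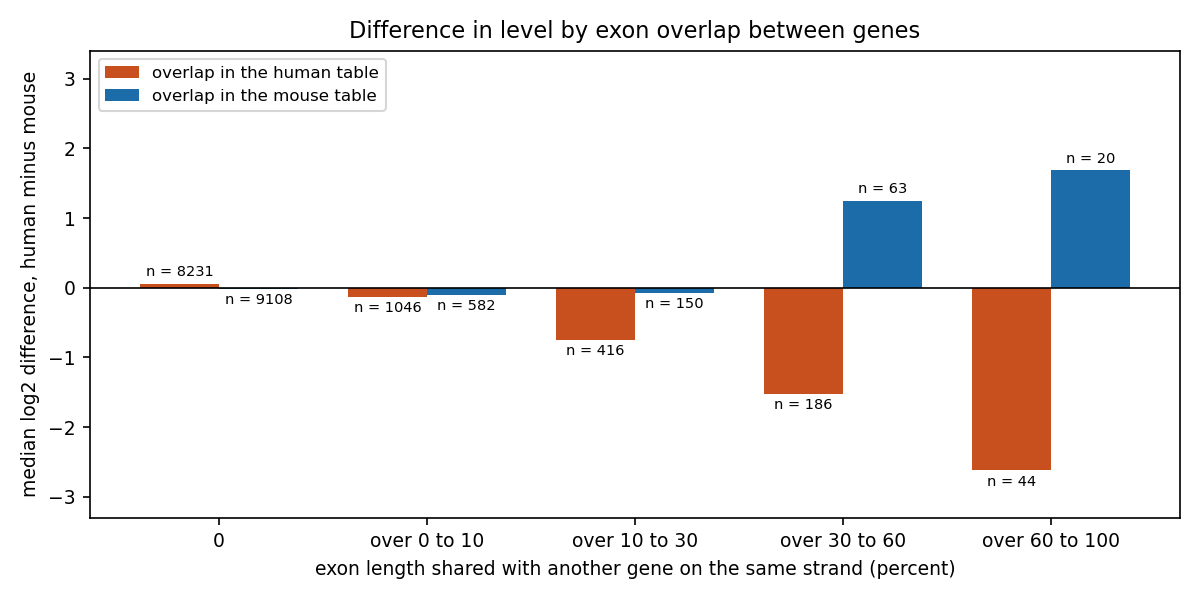
Median log2 difference (human minus mouse, y axis) of matched genes grouped by the percent of exon length they share with another gene on the same strand (x axis), separately for overlap in the human table (orange bars) and in the mouse table (blue bars), with the number of genes beside each bar. The human bars go from 0.06 with no overlap to -2.62 above 60%, and the mouse bars reach 1.25 and 1.69 in the 2 highest ranges.

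The 6 matched genes that encode sort markers, or a protein tied to one, were present in both groups and none of them was called by the edgeR test with the 4-fold limit. KIT stood at 161, 164 and 174 TPM in the mouse libraries and at 72.0, 72.2 and 73.2 TPM in the human ones. CD34, a sialomucin of early progenitors, stood at 73.0, 70.9 and 81.0 TPM in mouse and 131, 128 and 132 TPM in human. Each group thus expressed the marker that only the other was sorted on. CD3D and CD3G, chains of the CD3 complex of the mouse lineage cocktail, are outside the match. CD3D had counts of 1, 0 and 0 in mouse and 46, 30 and 38 in human, where its level was low at 1.21 ± 0.14 TPM. CD3G averaged 0.579 ± 0.12 TPM in mouse and 2.15 ± 0.078 TPM in human, short of 4-fold. Both were found by completing mouse symbols, so their direction is nearly fixed by how they were found. SPN, which encodes CD43, had means of 289 ± 11.1 and 451 ± 5.0 TPM, and PTPRC, which encodes CD45, had 15.8 ± 1.1 and 26.5 ± 0.46 TPM in mouse and human. ITGAM, the CD11b gene of the mouse lineage cocktail, was low at 2.66 ± 0.073 TPM in mouse, with 68.7% of its mouse exons shared, and 7.75 ± 1.2 TPM in human.

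Among stem cell transcription factors, 3 of 14 tested were called higher in human and none higher in mouse, with a list median of 1.16. GATA2, which maintains stem and progenitor cells, measured 40.8, 37.5 and 27.4 TPM in mouse and 418, 429.7 and 431 TPM in human (log2 difference 3.59, SE 0.12, adjusted p 4.47e-10). MEIS1, the partner of HOX proteins in stem cells, measured 13.4, 12.7 and 11.5 TPM in mouse, where 18.3% of its exons are shared, and 82.1, 79.7 and 83.3 TPM in human. Both genes were higher in each human library than in any mouse library. MECOM, a regulator of long-term stem cells, was scarce in both, at 0.764, 0.412 and 0.693 TPM in mouse and 6.36, 5.55 and 5.77 TPM in human (log2 difference 3.23, SE 0.177, adjusted p 2.36e-08). Its direction turned between the knockout and knockdown libraries, where the difference was -0.22. The core factors lay closer together: LMO2 averaged 491 ± 18.3 and 367 ± 2.4 TPM, TAL1 287 ± 7.5 and 571 ± 2.1 TPM, RUNX1 32.3 ± 0.57 and 113 ± 2.7 TPM and ERG 27.3 ± 1.8 and 22.3 ± 0.75 TPM in mouse and human. MYB and BMI1, which sustain progenitor growth and self-renewal, were higher in mouse by less than 4-fold, at 175 ± 10.9 against 87.1 ± 2.3 TPM and 75.6 ± 3.5 against 28.4 ± 1.7 TPM (22.8% of BMI1 exons shared in human).

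For HLF, a marker of stem cells proper, the mouse level on the scale of the matched genes was 11.4, 9.08 and 9.34 TPM. HOXA9 stood at 3.49 ± 0.16, HOXA7 at 3.39 ± 0.21, PRDM16 at 3.31 ± 0.36 and FLT3, the receptor of multipotent progenitors, at 24.7 ± 1.1 TPM in mouse. The human table pairs no gene with these symbols, and by symbol alone a low level and a missing name cannot be told apart there. Human genes outside the normalized table had at most 102 counts summed over the 6 human libraries, knockdown included. Within it, 3743 genes have no symbol. HOXB4, found when mouse symbols were completed from the annotation, had counts of 4, 7 and 5 in mouse and a level of 30.2 ± 0.65 TPM in human. Being outside the match, HOXB4 is no further support for the stem cell list.

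Among stem cell surface genes, 3 of 13 were called, all higher in human, with a median of 0.94. PROCR, the protein C receptor found on stem cells and endothelium, had 0.441, 0.582 and 0.771 TPM in mouse and 63.2, 65.6 and 61.2 TPM in human (log2 difference 6.70, SE 0.152, adjusted p 3.07e-11). ESAM and TEK, the other 2, also mark vessel lining. CD48, which in mouse marks progenitors rather than stem cells, was at 70.5 ± 2.7 TPM in mouse and 17.8 ± 1.3 TPM in human. This was just short of 4-fold.

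**Figure D2:**
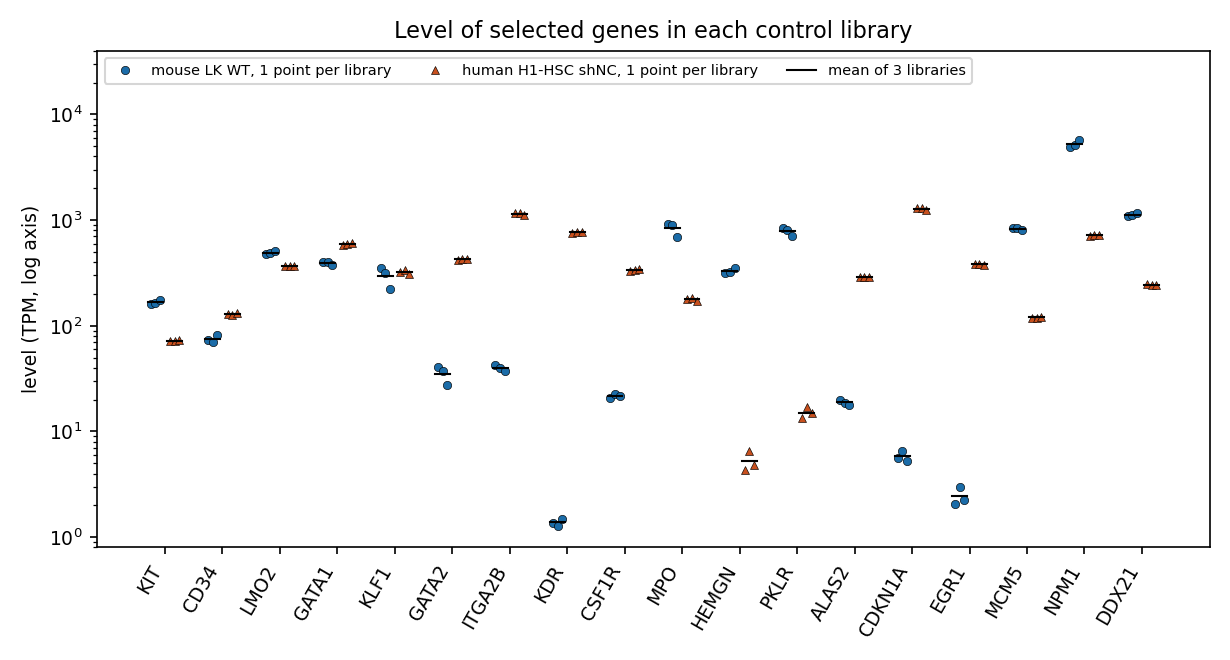
Level in TPM (log y axis) of 18 genes (x axis) in each control library, mouse LK WT as blue circles and human H1-HSC shNC as orange triangles, with the mean of 3 libraries as a black bar. KIT, CD34, LMO2, GATA1 and KLF1 lie within 3-fold between the groups, whereas KDR, CDKN1A and EGR1 are high only in the human libraries and HEMGN and PKLR only in the mouse libraries.

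In the red cell program the main regulators lay within 2-fold, while many genes of the later red cell were higher in mouse. Of 29 erythroid genes tested, 12 were called higher in mouse, against a background of 11.6%, and 1 higher in human, with a median of -1.43. The median over the 18 members with little exon overlap was -0.75, with 6 called higher in mouse. GATA1, the master regulator of red cells and megakaryocytes, measured 405, 403 and 376 TPM in mouse and 585, 598 and 607 TPM in human. KLF1, which switches on red cell genes, measured 349.6, 316 and 223 TPM in mouse and 325, 338 and 312 TPM in human, so the groups overlapped. Structural genes could also lie close together. RHAG, a membrane ammonia channel, averaged 483 ± 24.4 and 424 ± 8.6 TPM and SLC4A1, the band 3 anion exchanger, 38.9 ± 1.2 and 45.7 ± 0.83 TPM in mouse and human.

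HEMGN, a nuclear protein of red cell precursors, stood at 315, 326 and 353 TPM in mouse and 4.30, 6.58 and 4.85 TPM in human (log2 difference -6.00, SE 0.106, adjusted p 6.78e-12). ADD2, a protein of the membrane skeleton, stood at 147, 146 and 138 TPM in mouse and 1.47, 0.964 and 0.989 TPM in human (log2 difference -6.96, SE 0.104, adjusted p 2.5e-12). Every mouse library was far above every human one for both. PKLR, the red cell and liver pyruvate kinase, averaged 790.4 ± 72.9 TPM in mouse and 15.1 ± 1.7 TPM in human, with 17.6% of human exons shared. The spectrin SPTB, RHD, AQP1, ERMAP, EPB42, TRIM10, XK and TSPO2 were also called, with mouse means from 27.0 ± 2.2 TPM for TSPO2, against 3.84 ± 1.9 in human, to 696 ± 38.9 TPM for ERMAP, against 37.6 ± 0.39 in human. SPTB, AQP1 and EPB42 share 23.0, 27.9 and 15.2% of their human exons. CD36, a fatty acid receptor of early red cell precursors, platelets and macrophages, went the other way at 1.197, 1.65 and 1.36 TPM in mouse and 28.1, 27.9 and 28.8 TPM in human. EPOR, the erythropoietin receptor, averaged 220.2 ± 59.5 TPM in mouse, with 265, 242 and 153 in the 3 libraries, and 78.4 ± 1.2 TPM in human.

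Heme synthesis genes were called higher in mouse for 5 of 19 and higher in human for 2, with a median of -1.11. Both forms of the first enzyme were called higher in human. ALAS2, the red cell form of the rate-limiting enzyme, measured 19.97, 18.6 and 17.9 TPM in mouse, where 15.5% of its exons are shared, and 290.2, 289 and 288 TPM in human. ALAS1, the form of other tissues, averaged 26.7 ± 2.9 and 130.03 ± 6.4 TPM. ALAD, the next enzyme, was called higher in mouse at 509 ± 50.1 against 103 ± 2.4 TPM (log2 difference -2.30, SE 0.071, adjusted p 2.49e-10). FECH, which inserts the iron, overlapped at 78.3, 78.9 and 85.6 TPM in mouse and 82.6, 83.6 and 81.9 TPM in human. TFRC, the transferrin receptor, averaged 845 ± 57.3 TPM in mouse and 314 ± 1.4 TPM in human, short of 4-fold.

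Globins have no shared symbols and are given as TPM over all genes of each table. Mouse adult-type Hbb-bt measured 196, 213 and 218 TPM and Hba-a1 261, 220.04 and 70.0 TPM, the latter lowest in replicate 3. The embryonic Hbb-bh1 averaged 5.66 ± 1.4, Hbb-y 0.836 ± 0.50 and Hba-x 0.622 ± 0.24 TPM. In human, the embryonic HBZ measured 885, 839 and 811 TPM, HBD averaged 118 ± 12.3, HBA2 11.2 ± 2.2 and HBB 3.25 ± 0.87 TPM. Near-identical copies make single globin values uncertain, and the human table pairs no gene with HBE1, HBG1, HBG2 or HBA1. Car2, the carbonic anhydrase of red cells, averaged 1272 ± 73.1 TPM in mouse, and CA2 119 ± 1.3 TPM in human.

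The megakaryocyte program was higher in human. Of 15 genes tested, 9 were called higher in human and 1 in mouse, with a median of 3.72 and summed levels of 536 to 604 TPM in mouse and 4546 to 4663 TPM in human. ITGA2B, the platelet integrin CD41 that also appears on the first blood progenitors of the embryo, stood at 42.3, 40.3 and 37.4 TPM in mouse and 1159, 1155 and 1116 TPM in human (log2 difference 4.84, SE 0.056, adjusted p 7.75e-13). Its partner ITGB3 averaged 16.5 ± 0.46 and 218 ± 2.7 TPM. The glycoprotein subunits GP9 and GP1BA, which bind von Willebrand factor, averaged 13.4 ± 5.8 against 276 ± 12.7 and 14.9 ± 1.2 against 243 ± 3.8 TPM. THBS1, the granule protein thrombospondin, averaged 24.04 ± 0.34 TPM in mouse and 1579 ± 23.0 TPM in human. F2RL2, a thrombin receptor, averaged 9.71 ± 1.3 and 412 ± 8.1 TPM.

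Not every gene of the megakaryocyte list followed. GP5 measured 10.0, 13.1 and 8.99 TPM in mouse and 2.22, 1.495 and 1.91 TPM in human and was called higher in mouse. VWF was low in both groups, at 5.57 ± 0.22 and 2.67 ± 0.23 TPM. GFI1B, a repressor needed for red cells and megakaryocytes, averaged 306 ± 33.3 TPM in mouse and 113 ± 2.2 TPM in human. PF4, a platelet chemokine, was at 18.9 ± 3.0 TPM in mouse, and the human table pairs no gene with its symbol.

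Endothelial genes had differences above 0 for each of the 12 tested, and 10 of them were called higher in human, with a median of 3.94 and 5.90 over the 7 members with little exon overlap. KDR, the main receptor for vascular endothelial growth factor, stood at 1.37, 1.29 and 1.47 TPM in mouse and 755, 765 and 778 TPM in human (log2 difference 9.12, SE 0.0617, adjusted p 8.61e-14). CDH5, the cadherin of vessel junctions, stood at 0.596, 0.516 and 0.186 TPM in mouse and 26.6, 27.0 and 25.8 TPM in human (log2 difference 5.90, SE 0.181, adjusted p 2.44e-10). FLT1, a second receptor of the family, averaged 0.309 ± 0.043 and 36.4 ± 0.72 TPM, TIE1 9.25 ± 1.3 and 196 ± 4.5 TPM and PECAM1 22.0 ± 0.91 and 204 ± 5.9 TPM. EMCN and ROBO4 were near the bottom in both, at 2.18 ± 0.33 and 1.98 ± 0.18 TPM in human. ENG was called at a difference of 2.02, but its difference was 1.93 without mouse replicate 3 and 2.00, just under the threshold, without human replicate 1. Of members outside the match, whose direction is nearly fixed by how they were found (1800 of 1995 such genes called higher in human), MMRN2 was at 42.4 ± 3.6 TPM and CLDN5 at 2.37 ± 0.11 TPM in human, with at most 1 count in any mouse library. Summed over the tested list, levels were 103 to 133 TPM in mouse and 2146 to 2186 TPM in human. Bulk libraries do not tell fewer cells of a type from less RNA per cell.

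Stromal, hepatocyte and pluripotency genes served as markers of other cells that the sorts could hold. Of 4 stromal genes tested, 3 were called higher in human: SPARC at 0.438 ± 0.16 and 102 ± 3.4 TPM, COL1A2 at 0.864 ± 0.36 and 37.8 ± 0.66 TPM and PDGFRB at 7.89 ± 0.53 and 33.6 ± 2.1 TPM in mouse and human. The call of PDGFRB ended with levels scaled to all genes of each table (1.87). The stromal sum was 10.2 to 11.5 TPM in mouse and 173 to 179.9 TPM in human. COL1A1 had 9.15 ± 0.11 TPM in human and 1 count in all in mouse. Hepatocyte transcripts were scarce in the mouse libraries although the cells came from liver, with ALB at 0.688, 0.421 and 1.09, AFP at 0.957, 1.17 and 0.988 and TTR at 0, 0.166 and 0.495 TPM. HP, haptoglobin, was the exception at 36.0, 38.3 and 32.4 TPM. In human, CPS1, a urea cycle enzyme of hepatocytes that is outside the match, measured 19.01, 19.8 and 16.9 TPM, with 0 counts in each mouse library. HNF4A, the only hepatocyte gene tested, went the other way and was not called, at 3.31 ± 0.60 TPM in mouse and 1.58 ± 0.31 TPM in human. For ALB, AFP, APOA1 and TTR the human table pairs no gene. In the human cells, DPPA4 reached 67.1 ± 0.59, SALL4 46.4 ± 1.1 and ZFP42 18.5 ± 1.0 TPM. These genes of pluripotent cells had at most 1 count in any mouse library. COL1A1, CPS1, DPPA4, SALL4 and ZFP42 were found by completing mouse symbols. Of 1995 such genes tested, 1800 were called higher in human, so their direction is nearly fixed by how they were found. DNMT3B, also high in pluripotent cells, averaged 112 ± 2.6 and 147 ± 6.6 TPM in mouse and human. The human table pairs no gene with POU5F1, NANOG or SOX2. The part of such cells in the differences was not tested.

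In the granulocyte list, 2 of 9 were called higher in human and 1 higher in mouse, and the median of 0.12 became -0.09 when levels were scaled to all genes of each table. MPO, the azurophil granule enzyme, measured 915, 889 and 694 TPM in mouse and 179, 183 and 171 TPM in human (log2 difference -2.23, SE 0.095, adjusted p 3.12e-09). Other early granule proteases were present in mouse, CTSG at 115 ± 3.0, PRTN3 at 83.6 ± 30.5 and ELANE at 57.2 ± 15.7 TPM, with no human gene of those symbols to set beside them. S100A9, a calcium-binding protein of later myeloid cells, averaged 17.6 ± 1.5 TPM in mouse and 116 ± 9.4 TPM in human, and its difference was 0.23 between the knockout and knockdown libraries. CEBPA, the granulocyte regulator, averaged 20.7 ± 1.2 and 23.4 ± 1.6 TPM.

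Of 13 monocyte and macrophage genes, 6 were called higher in human and 1 higher in mouse, with a median of 1.55. CSF1R, the receptor that macrophages need to survive, stood at 20.6, 22.4 and 21.6 TPM in mouse, where 15.1% of its exons are shared, and 331, 339.9 and 341 TPM in human (log2 difference 3.97, SE 0.0495, adjusted p 1.15e-12). SPI1, the myeloid master regulator, averaged 36.1 ± 6.6 TPM in mouse and 256 ± 6.6 TPM in human. TYROBP and FCER1G, adaptors of activating receptors, averaged 72.5 ± 4.8 against 419 ± 4.8 and 37.1 ± 2.7 against 333 ± 21.5 TPM. CCR2, the receptor of circulating monocytes, was the called exception at 12.1 ± 0.63 TPM in mouse and 1.54 ± 0.17 TPM in human. Macrophage genes outside the match are given as values only, because genes found by completing mouse symbols are those the human table lists, and 1800 of 1995 such genes were called higher in human. C1QC, a complement subunit, had 0 counts in each mouse library and 95.5, 98.9 and 85.1 TPM in the human libraries, at least 284-fold higher when 3 counts per mouse library are taken as the floor. Its companion subunits stood well below it in human, C1QA at 5.13 ± 0.85 and C1QB at 13.3 ± 1.9 TPM. CD163, a macrophage receptor, was at 3.35 ± 0.65 TPM in human. These had at most 1 count in any mouse library. MRC1, the mannose receptor, was at 70.3 ± 0.97 TPM and AIF1 at 171 ± 5.6 TPM in human, with mouse means of 0.221 ± 0.021 and 0.570 ± 0.052 TPM.

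Mast cell, basophil and eosinophil genes went both ways, 3 of 9 called higher in human and 2 in mouse. HDC, which makes histamine, stood at 27.7, 28.6 and 27.5 TPM in mouse and 429, 429.9 and 429 TPM in human (log2 difference 3.94, SE 0.0439, adjusted p 6.8e-13). PRG3, an eosinophil granule protein, averaged 11.9 ± 1.6 and 279 ± 9.3 TPM. CPA3, the mast cell carboxypeptidase, was higher in mouse at 61.8 ± 3.7 against 12.5 ± 0.88 TPM. In the lymphoid list, 3 of 11 genes were called higher in human and 1 higher in mouse. The latter was IKZF1, a regulator active from the stem cell on, which measured 419, 421 and 424 TPM in mouse and 61.1, 61.3 and 59.1 TPM in human (log2 difference -2.80, SE 0.0399, adjusted p 2.11e-12). NOTCH1, which directs the T cell fate and also the formation of stem cells from endothelium, averaged 9.22 ± 2.0 TPM in mouse and 108 ± 1.6 TPM in human. The T and B cell genes proper were low in both groups: RAG1 had 6.83 ± 0.53 and 1.92 ± 0.23 TPM and IL7R 5.96 ± 0.47 and 23.4 ± 0.93 TPM.

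**Figure D3:**
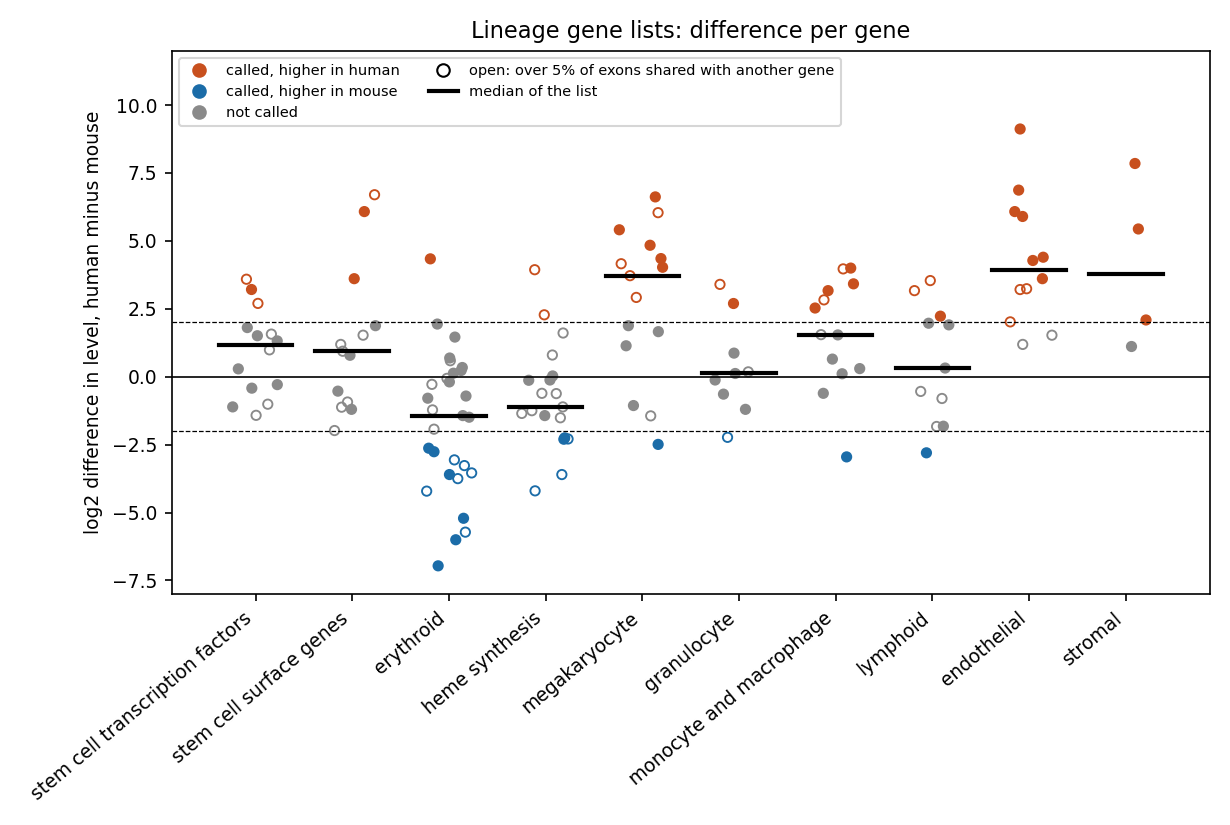
Log2 difference (human minus mouse, y axis) of each tested gene in 10 lineage lists (x axis), orange where called higher in human, blue where called higher in mouse and grey where not called, with open symbols for genes with over 5% of their exon length shared with another gene in either table and a black bar at the median of the list. The median lies at 3.72 for megakaryocyte and 3.94 for endothelial genes and at -1.43 for erythroid genes, and dashed lines mark 4-fold.

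Of 8 fetal program genes tested, 3 were called higher in human and 1 higher in mouse, with a median of 1.35. LIN28B, the RNA-binding protein that holds blood progenitors in a fetal state, measured 96.5, 94.3 and 105 TPM in mouse and 126, 121 and 129 TPM in human, within 2-fold. Its paralog LIN28A, a gene of earlier embryonic cells, measured 3.67, 4.09 and 4.60 TPM in mouse and 197, 187 and 189 TPM in human (log2 difference 5.53, SE 0.0763, adjusted p 1.83e-12). HMGA2, a chromatin protein downstream of LIN28B, was the lone gene called higher in mouse, with 79.3, 81.9 and 86.1 TPM in mouse and 3.54, 3.47 and 3.52 TPM in human (log2 difference -4.55, SE 0.0609, adjusted p 1.62e-12). IGF2BP1 and IGF2BP3, RNA-binding proteins of the same program, averaged 174 ± 4.8 against 311 ± 3.7 and 36.8 ± 1.0 against 56.5 ± 1.5 TPM. DLK1, an imprinted membrane protein of fetal tissue, showed the largest difference of the genes named by size, with 1.71, 1.53 and 1.07 TPM in mouse and 2706, 2775 and 2661 TPM in human (log2 difference 10.87, SE 0.096, adjusted p 2.68e-13). The imprinted growth factor IGF2 had counts of 3, 3 and 6 in mouse, where 64.5% of its exons are shared, and 251 ± 7.4 TPM in human. IGF2 is outside the match and so no further support for the list.

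Replication genes were called higher in mouse more often than the background, and mitotic genes, by the same 4-fold call, were not. In the S phase list 14 of 43 genes were called higher in mouse and 1 higher in human, with a median of -1.49, and summed levels were 10497 to 10629.9 TPM in mouse and 3599.99 to 3673 TPM in human. MCM5, part of the replicative helicase, stood at 835, 836 and 802 TPM in mouse and 119, 119.6 and 122 TPM in human (log2 difference -2.78, SE 0.0405, adjusted p 2.44e-12). RRM2, which supplies deoxynucleotides, averaged 730.5 ± 23.9 and 98.6 ± 0.96 TPM, and POLA1, the polymerase that primes replication, 101 ± 7.0 and 17.6 ± 1.0 TPM. FEN1 was the exception and was called higher in human, but 84.2% of its mouse exons are shared and its 3 mouse libraries spread over 39.3, 27.7 and 9.21 TPM. In the G2/M list 6 of 54 were called, each higher in mouse, which is close to the background, with a median of -0.91. By the adjusted p alone, 42 of the 54 were higher in mouse and 9 higher in human, against backgrounds of 45.6% and 44.6%. MKI67, the proliferation antigen, measured 664, 685 and 739.9 TPM in mouse and 137, 139 and 137 TPM in human (log2 difference -2.34, SE 0.0479, adjusted p 1.59e-11), whereas CDK1, the kinase that drives entry into mitosis, overlapped at 88.4, 85.6 and 92.3 TPM in mouse and 94.8, 93.6 and 92.3 TPM in human.

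Inhibitors of the cycle differed gene by gene. CDKN1A, the p21 inhibitor induced by p53, stood at 5.59, 6.60 and 5.29 TPM in mouse and 1297, 1311 and 1243 TPM in human (log2 difference 7.78, SE 0.0737, adjusted p 3.46e-13), which placed it at percentile 16.8 of matched genes in mouse and 99.6 in human. CDKN1C, the p57 inhibitor linked to quiescent stem cells, averaged 1.81 ± 0.82 TPM in mouse, with 30.7% of exons shared, and 51.1 ± 1.8 TPM in human. CDKN1B, p27, overlapped between the groups at means of 20.997 ± 1.5 and 19.4 ± 1.2 TPM. CCND3, the D cyclin that red cell precursors and lymphocytes rely on, averaged 54.2 ± 10.4 and 498 ± 5.0 TPM, while CCND2 averaged 157 ± 5.9 and 136 ± 1.2 TPM. MYC, the growth regulator, averaged 306 ± 43.5 TPM in mouse and 157 ± 2.1 TPM in human, and MYCN 11.8 ± 1.4 and 46.8 ± 2.4 TPM.

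Targets of p53 were among the lists most often called higher in human: 13 of 26 genes against a background of 15.3%, none higher in mouse, with a median of 2.15. EDA2R, a receptor for ectodysplasin A2, measured 0.699, 0.535 and 0.598 TPM in mouse and 83.4, 79.9 and 80.5 TPM in human (log2 difference 7.04, SE 0.0995, adjusted p 2.05e-12). TNFRSF10B, a receptor for the death ligand TRAIL, averaged 2.75 ± 0.47 and 325 ± 0.53 TPM, RRM2B, a p53-induced nucleotide reductase subunit, 7.03 ± 0.96 and 154 ± 2.9 TPM and ZMAT3, an RNA-binding protein, 6.47 ± 0.94 and 97.4 ± 2.6 TPM. GDF15, a stress-induced cytokine outside the match, had counts of 0, 1 and 1 in mouse and 5605, 4638 and 5053 in human. Found by completing mouse symbols, GDF15 is no further support for the list. Members near parity included SESN1, SESN2, AEN and TRIAP1, with differences of -0.33, -0.05, 0.23 and -0.15. Between the knockout and the knockdown libraries, which share no library with the controls, the median of the same list was -0.01.

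Ribosome assembly was higher in mouse. None of the 54 assembly genes was called higher in human and 18 were called higher in mouse, with a median of -1.61 and -1.65 over the 29 members with little exon overlap. DDX21, the nucleolar RNA helicase that the study depletes in other libraries, measured 1087, 1118 and 1166 TPM in mouse and 248, 241 and 244 TPM in human (log2 difference -2.20, SE 0.0414, adjusted p 9.54e-12). Its difference was -1.54 without the length term, short of 4-fold. NPM1, the main nucleolar chaperone, measured 4939, 5101 and 5679 TPM in mouse and 709, 718 and 722 TPM in human (log2 difference -2.87, SE 0.0557, adjusted p 1.15e-11), and its difference was -1.41 without the length term. DKC1, which modifies ribosomal RNA, averaged 489 ± 34.6 and 115 ± 1.7 TPM, and POLR1B, the second largest subunit of RNA polymerase I, 179 ± 4.1 and 34.9 ± 1.4 TPM. NCL, nucleolin, differed by less, with 2019 ± 55.4 and 758 ± 6.5 TPM. FBL, the methyltransferase fibrillarin, was at 273 ± 28.2 TPM in mouse and 351 ± 9.9 TPM in human, and NOP58 overlapped at means of 186 ± 7.7 and 182 ± 4.3 TPM.

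Ribosomal protein genes followed, with 19 of 74 called higher in mouse, 2 higher in human and a median of -1.06. The called genes included RPL4 at 6228 ± 331 and 1494 ± 36.6 TPM and RPS7 at 1679.8 ± 16.7 and 295 ± 6.7 TPM in mouse and human. The call of RPL4 ended without the length term (-0.75). The 2 called higher in human were RPL24 and RPL13A, which share 47.0% and 35.4% of their mouse exons with other genes. Processed copies of ribosomal protein genes can take or split reads, so single members are uncertain.

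Glycolysis genes were called in both directions: 4 of 21 genes were called higher in human, 4 higher in mouse, and the median of -0.11 took the other sign with upper-quartile scaling (0.08) and without the length term (0.51). LDHA, SLC16A1 and PDK1, which act on lactate and pyruvate, were called higher in mouse. LDHA, which makes lactate, measured 2066, 2119 and 2212 TPM in mouse and 231, 235 and 230.4 TPM in human (log2 difference -3.20, SE 0.0427, adjusted p 1.62e-12), and SLC16A1, a lactate carrier, averaged 339.8 ± 12.1 and 22.6 ± 0.63 TPM. PDK1, the kinase that blocks pyruvate oxidation, averaged 147 ± 8.6 and 18.0 ± 0.34 TPM. SLC2A3, a high-affinity glucose carrier, was higher in human with 61.2, 67.6 and 66.5 TPM in mouse and 725, 737 and 723 TPM in human (log2 difference 3.48, SE 0.0491, adjusted p 2.03e-12), whereas SLC2A1 overlapped at means of 65.7 ± 6.1 and 59.5 ± 3.3 TPM. Without the length term the difference of GAPDH was 1.28, short of 4-fold. GAPDH averaged 949 ± 31.6 TPM in mouse and 4500.5 ± 37.0 TPM in human and PFKP, the platelet form of phosphofructokinase, 17.8 ± 0.44 and 92.3 ± 0.32 TPM. The largest difference higher in mouse was that of ALDOA, with 1004 ± 44.8 TPM in mouse and 22.7 ± 0.17 TPM in human, and 54.2% of its human exons are shared.

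For pyruvate oxidation and the citric acid cycle, 5 of 23 genes were called higher in mouse and 2 higher in human, with a median of -0.90. None of the 7 called genes had little exon overlap in both tables, and the median over the 10 members that did was -0.52. Citrate synthase, CS, averaged 500.4 ± 17.9 TPM in mouse and 203 ± 4.7 TPM in human, IDH2 220.00 ± 4.2 and 277 ± 12.7 TPM and MDH2 363 ± 11.5 and 261 ± 8.2 TPM.

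Nuclear genes of the respiratory chain and ATP synthase were called higher in mouse for 23 of 72 and higher in human for 5. The median of -1.15 was -0.44 over the 31 members with little exon overlap, of which 5 were called higher in mouse and 3 higher in human. It was -0.44 without the length term. ATP5F1A, the alpha subunit of ATP synthase, measured 1425, 1443 and 1449 TPM in mouse and 276, 267 and 264 TPM in human, while the beta subunit ATP5F1B measured 1551, 1577 and 1687 TPM in mouse and 2060.1, 2115 and 2032 TPM in human. This contrast rests on the deposited gene lengths, since without the length term the differences were -0.80 for ATP5F1A, short of 4-fold, and -0.73 for ATP5F1B. In cytochrome c oxidase, COX7B was higher in mouse at 314 ± 27.3 against 57.4 ± 2.2 TPM and COX5A higher in human at 47.9 ± 1.4 against 309.7 ± 13.496 TPM (12.8% of its mouse exons shared). NDUFB4 and NDUFB7 of complex I were called higher in human, at 18.1 ± 1.1 against 90.4 ± 2.9 and 34.5 ± 12.8 against 229 ± 17.4 TPM.

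Transcripts of the mitochondrial chromosome took 1.86 to 2.04% of counts in mouse and 8.59 to 8.65% in human. All 12 genes matched were higher in human and 6 were called, with a median of 2.57. The genes with the highest mouse levels, among them ND1, CYTB and COX1, were not called: ND1 averaged 11143 ± 539 and 16619 ± 353 TPM, CYTB 10821 ± 833 and 20892 ± 133 TPM and COX1 19759.5 ± 1229.8 and 46198 ± 667 TPM. COX2, COX3, ATP6 and ND4L stood at 39.1 ± 4.5, 89.2 ± 5.5, 40.7 ± 6.9 and 72.3 ± 6.7 TPM in mouse against 33606 ± 1082, 42709 ± 769, 36458 ± 1219 and 18506 ± 672 TPM in human, with at most 6.46% of mouse exons shared. The mouse values of these 4 are uncertain, because they lie far below neighbours that are copied from the same chromosome as one transcript. Both the share of counts and the median of 2.57 include these 4 genes and carry the same uncertainty.

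Lipid synthesis was higher in human. Of 29 genes of cholesterol and fatty acid synthesis, 11 were called higher in human and none higher in mouse, with a median of 1.64, or 0.75 over 14 members with little exon overlap. SQLE, which commits squalene to sterols, measured 57.9, 54.8 and 56.5 TPM in mouse and 395, 396 and 389.6 TPM in human (log2 difference 2.80, SE 0.0427, adjusted p 2.85e-12). FASN, the fatty acid synthase, averaged 170.1 ± 36.5 and 765 ± 9.7 TPM, MSMO1 16.1 ± 1.4 and 131 ± 0.45 TPM and MVD 18.1 ± 5.0 and 140.3 ± 4.0 TPM. The calls of FASN (1.76) and MSMO1 (1.74) ended without the length term. FDPS had the largest difference, 6.13, with 26.7% of its mouse exons shared. Of 15 fatty acid oxidation genes, 1 was called higher in human and 2 in mouse, and the median of -0.89 changed sign to 0.14 without the length term and to 0.57 over the 7 members with little exon overlap, none of them called.

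Serine and one-carbon genes were called higher in mouse for 3 of 11, with a median of -1.44. PHGDH, the first enzyme of serine synthesis, measured 618, 606 and 546 TPM in mouse and 31.6, 33.4 and 32.9 TPM in human (log2 difference -4.18, SE 0.0612, adjusted p 2.48e-12). SHMT1, the cytosolic enzyme that passes the carbon from serine to folate, averaged 103 ± 5.2 and 11.6 ± 0.93 TPM, and MTHFD1 591 ± 10.6 and 46.4 ± 0.65 TPM (12.1% shared in human). The difference of MTHFD1 was -1.88 without the length term, short of 4-fold. The mitochondrial enzyme MTHFD2 stayed within 2-fold at 188 ± 5.2 and 158 ± 3.6 TPM. The regulator ATF4 averaged 343 ± 9.0 TPM in mouse and 711 ± 13.8 TPM in human, and the median of the 14 genes tested in the list of its targets, ATF4 included, was -0.09, or 0.10 with upper-quartile scaling. Among redox genes, HMOX1, heme oxygenase, was higher in human with 3.68, 2.92 and 2.23 TPM in mouse and 75.4, 68.4 and 74.9 TPM in human (log2 difference 4.61, SE 0.135, adjusted p 1.68e-10). GCLM, a subunit of the glutathione-synthesis enzyme, was higher in mouse at 152 ± 10.9 against 19.4 ± 1.6 TPM, and so was the peroxiredoxin PRDX3 at 877 ± 74.0 against 179 ± 1.6 TPM. CAT, catalase, measured 226, 219.97 and 215 TPM in mouse, and the human table pairs no gene with its symbol.

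Immediate-early and inflammatory genes were higher in human. Of 14 tested, 11 were called higher in human and none in mouse, with a median of 2.80 and summed levels of 94.1 to 121 TPM in mouse and 2287 to 2304 TPM in human. EGR1, a zinc finger factor switched on within minutes of a stimulus, measured 2.08, 2.99 and 2.27 TPM in mouse and 385, 384 and 377 TPM in human (log2 difference 7.29, SE 0.0891, adjusted p 1.1e-12). FOS, a subunit of the AP-1 factor, measured 2.51, 2.01 and 1.75 TPM in mouse and 91.1, 95.2 and 89.8 TPM in human (log2 difference 5.45, SE 0.103, adjusted p 1.01e-11). JUNB, its partner, varied within the mouse group at 9.30, 5.66 and 1.51 TPM, lowest in replicate 3, and measured 414, 438 and 417 TPM in human. NR4A1, an orphan nuclear receptor, averaged 0.820 ± 0.32 and 132 ± 3.1 TPM, and ZFP36, which destabilises cytokine messages, 4.30 ± 0.83 and 194 ± 2.5 TPM. IER2 was called at 2.11, but its difference was 1.80 without mouse replicate 3, short of 4-fold. CXCL2, a chemokine outside the match and so no further support for the list, had 0 counts in each mouse library and 47.7, 45.3 and 39.4 TPM in human, at least 144-fold higher. The labels state that the mouse tissue and cells were kept cold through harvest and sorting, and the part of handling was not tested.

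Interferon response genes were called higher in human for 8 of 18, with a median of 1.66, and none was called higher in mouse. MX1, an antiviral GTPase, measured 1.04, 0.677 and 1.09 TPM in mouse and 41.8, 41.0 and 40.1 TPM in human (log2 difference 5.45, SE 0.103, adjusted p 1.02e-11). PARP14 averaged 7.11 ± 0.48 and 66.5 ± 3.8 TPM and IRF7 2.18 ± 0.25 and 18.5 ± 0.78 TPM. ISG15, outside the match, had counts of 7, 9 and 10 in mouse and a mean of 359 ± 16.4 TPM in human. Its direction is nearly fixed by how it was found, so it adds no support for the list. The human cells carried a lentivirus and the mouse cells did not, which cannot be told apart from the other differences here. IFNAR2, a subunit of the type I receptor, was higher in mouse at 55.5 ± 1.3 against 6.99 ± 0.13 TPM, with 27.7% of human exons shared.

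Of 18 cytokine and growth factor receptors, 7 were called higher in human, among them CSF2RB, the shared chain for interleukin-3 and GM-CSF, at 23.8, 22.8 and 23.6 TPM in mouse and 379, 381 and 383 TPM in human (log2 difference 4.03, SE 0.0439, adjusted p 5.89e-13). TGFBR2 averaged 9.85 ± 0.36 and 117 ± 2.6 TPM and IL6ST, the shared chain of interleukin-6 receptors, 7.40 ± 0.76 and 81.1 ± 0.58 TPM. Hypoxia genes were called higher in human for 3 of 15 and in mouse for 2. HIF1A, the oxygen-sensing factor, averaged 64.8 ± 5.2 TPM in mouse and 301 ± 5.1 TPM in human, a call that ended without the length term (1.84), and VEGFA 22.5 ± 0.59 and 29.5 ± 1.0 TPM.

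**Figure D4:**
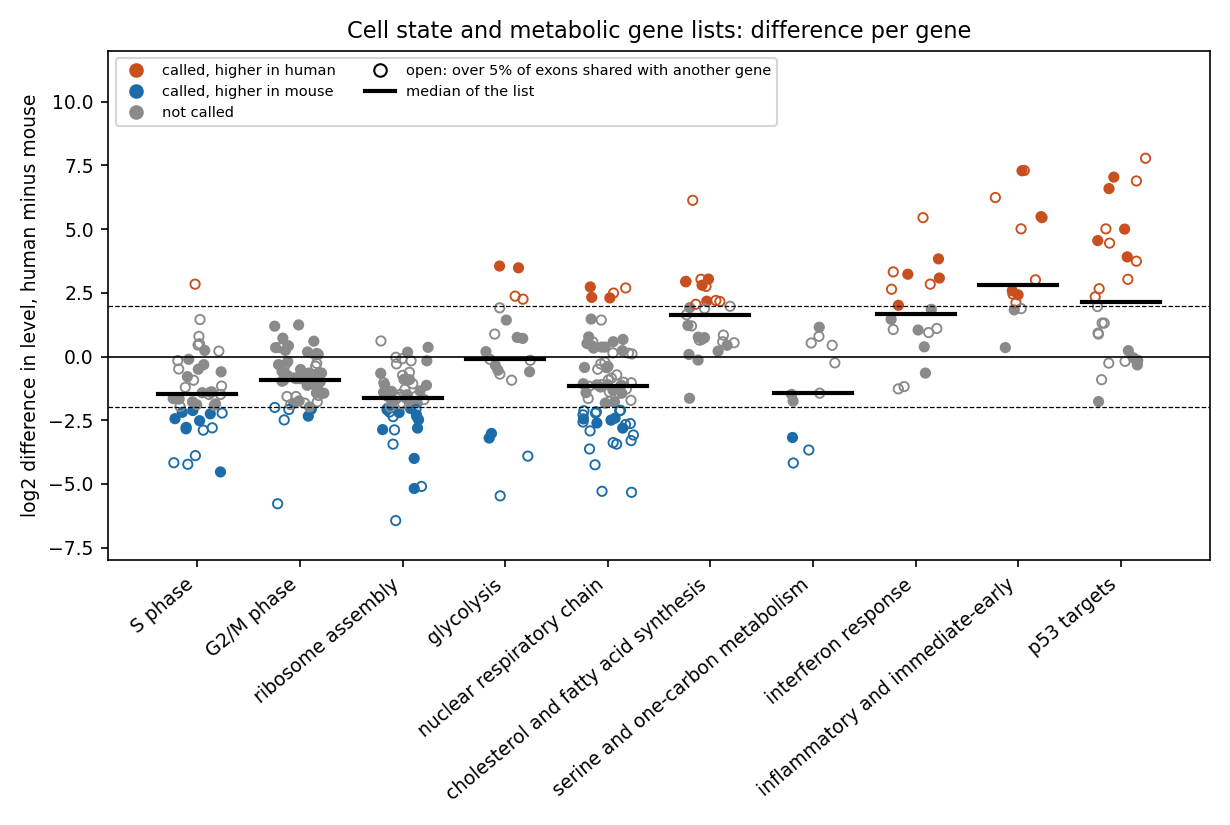
Log2 difference (human minus mouse, y axis) of each tested gene in 10 lists of cell state and metabolism (x axis), with colours, open symbols, bars and dashed lines as in the plot of lineage lists. Medians lie at -1.61 for ribosome assembly and -1.49 for S phase, near 0 for glycolysis, and at 1.64 for cholesterol and fatty acid synthesis, 2.15 for p53 targets and 2.80 for immediate-early genes.

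By size alone, the differences higher in human among genes of at least 20 TPM led from DLK1 to TIMP3, a metalloproteinase inhibitor, at 2.00, 1.91 and 2.11 TPM in mouse, where 21.3% of its exons are shared, and 3355, 3418 and 3355 TPM in human. CLEC11A, a growth factor for blood progenitors and bone, measured 1.38, 1.92 and 1.45 TPM in mouse and 447, 474 and 431 TPM in human (log2 difference 8.15, SE 0.0971, adjusted p 9.55e-13). MMP14, a membrane-bound matrix protease, averaged 1.13 ± 0.19 and 315 ± 10.3 TPM, NEAT1, the long RNA that builds paraspeckles, 1.82 ± 0.15 and 621 ± 56.6 TPM, and MAP1B, a microtubule protein of neurons, 0.199 ± 0.023 and 70.0 ± 3.1 TPM. TRIB1, a pseudokinase, averaged 0.301 ± 0.19 TPM in mouse and 157 ± 7.4 TPM in human.

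Of the 10 largest differences higher in mouse, ADD2 and SLC14A1 were the 2 with at most 5% of exons shared in both tables. The others, ASNS, UBB, DDX39B, SLC35A4, MNS1, SKP1, PSMA2 and CDC42, share 10.6 to 73.1% of their human exons. ASNS, asparagine synthetase, is an example at 715 ± 4.9 TPM in mouse and 1.34 ± 0.17 TPM in human with 49.3% shared. SLC14A1, the urea carrier of red cells, measured 69.8, 74.8 and 76.9 TPM in mouse and 0.674, 0.916 and 0.607 TPM in human (log2 difference -6.66, SE 0.115, adjusted p 5.82e-12).

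Chosen after the values were seen, the 15 largest differences higher in mouse with little exon overlap included ABCG2, an efflux pump that marks stem and red cell precursors, with 46.6, 46.6 and 51.1 TPM in mouse and 0.592, 0.615 and 1.07 TPM in human (log2 difference -5.97, SE 0.136, adjusted p 3.06e-11). They also included ATP7B, a copper pump, at 141 ± 1.2 and 3.72 ± 0.11 TPM, ASS1, of arginine synthesis, at 124 ± 8.8 and 2.71 ± 0.092 TPM, ACSS1, which activates acetate in mitochondria, at 151 ± 9.3 and 3.08 ± 0.27 TPM, and TGFBR3, a coreceptor for TGF-beta, at 69.9 ± 0.96 and 0.929 ± 0.17 TPM. On the human side the same choice added QPRT, of NAD synthesis, at 2.64 ± 0.72 and 475 ± 10.2 TPM, and SERPINH1, the collagen chaperone, at 0.859 ± 0.25 and 154 ± 2.9 TPM.

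**Figure D5:**
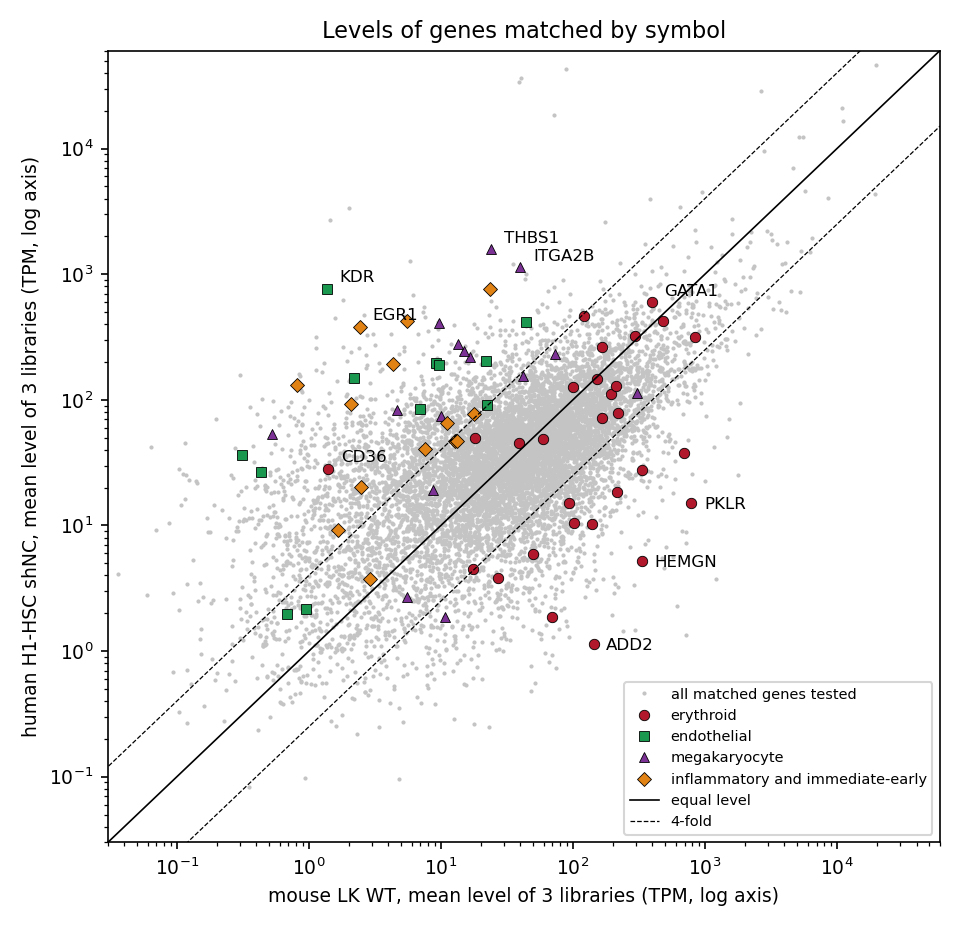
Mean level of each gene tested in 3 mouse LK WT libraries (x axis, TPM, log scale) against 3 human H1-HSC shNC libraries (y axis, TPM, log scale), with all genes in grey, 4 lists in colour, a solid line at equal level and dashed lines at 4-fold. Endothelial, megakaryocyte and immediate-early genes lie mostly above the upper dashed line, and the erythroid genes ADD2, HEMGN and PKLR lie below the lower one, while GATA1 lies near equality.

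The same contrast between the 6 perturbed libraries, mouse LK Ddx21-cKO (Vav1-Cre; Ddx21f/f) and human H1-HSC shDDX21, shares no library with the controls. It keeps the species, cell sources and gene models of the control contrast, so agreement with that contrast is no independent support. In all, 1463 genes were called higher in human and 1254 higher in mouse between the perturbed libraries. The calls held 1198 of the 1523 genes higher in human (78.7%) and 968 of the 1151 higher in mouse (84.1%). Of the 1523 and 1151 genes, 45 and 0 had the opposite sign. Medians by list were 3.15 for endothelial, 2.76 for megakaryocyte, 2.59 for immediate-early and -1.75 for ribosome assembly genes. They were nearer 0 for erythroid genes at -0.36 and for stem cell transcription factors at -0.01.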

How the data were processed

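Poly(A) RNA of 3 mouse and 3 human control libraries was compared, with the 6 perturbed libraries as an alternative. The raw counts per gene were made with STAR and featureCounts, on builds mm10 and hg38, per the submitters' processing notes, and versions and strand setting are not given in the sources used here. The deposited length column gives each gene's length in bases, as the authors listed it. The authors' normalized values (a signal with no fixed unit) equal each library's counts divided by 1 constant and, with the deposited log2 fold changes, which come from the authors' own comparisons, served only for gene symbols. Counts, 15289510 to 23182524 per library, were divided by length and scaled by TMM. edgeR 4.0.16 (R 4.3.3) fitted them with an offset of log length and log effective library size after its default expression filter, with two-sided quasi-likelihood tests and Benjamini-Hochberg adjustment over 9923 genes. On simulated data the test passed the adjusted p for 99 of 100 genes changed 2-fold and called 100 of 100 changed 8-fold. The changed genes were drawn from well-counted genes with counts in every library, and all other genes were set equal between the groups. The simulation thus does not cover genes with few counts, or data in which most genes differ.

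The rule for named genes took the sort markers and DDX21; the 10 largest called differences in each direction among non-overlapping genes of at least 20 TPM, leaving out ribosomal protein, histone and mitochondrial genes; from each of 34 lists the 3 members with the highest level and up to 3 called members with the largest difference; and globins and similar genes with no shared symbol. Other list members were named after their values were seen. The groups, lists and members were chosen with earlier results of these data known, so lists are given by counts and medians beside all genes tested, with no test. Alternatives were DESeq2 1.42.0, limma 3.58.1 on log2 TPM, other scaling, filters, call rules, matching and library sets. Exon overlap was computed from the deposited gene models. Genes whose symbol the human table does not pair are not compared. Some members of the lists are counted but not reported by name here.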

Additional observations from a re-analysis of the deposited data

How the results depend on the processing

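The number of called genes (1523 higher in human and 1151 higher in mouse) stayed within 1.5 times under other scaling, filters, tools and left-out libraries. Leaving out 1 library at a time gave 1519 to 1538 and 1124 to 1157 calls. The split moved most with the total over all genes of each table (1328 and 1409, median difference -0.23), upper-quartile factors (1723 and 936, median 0.18) and no length term (1516 and 823). It moved further where other genes or call rules were used. At least 2-fold gave 2829 and 2694 and the adjusted p alone 4429 and 4529. Completed mouse symbols gave 3130 higher in human. Genes with at most 5% of exon length shared, an alternative chosen after the data were seen, gave 842 and 562, from fewer genes tested. The replicate block gave 1525 and 1151 calls. Equal replicate numbers did not pair libraries, since deviations from the group means correlated with r of 0.03, 0.038 and 0.11.

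With the perturbed libraries the difference of MECOM was -0.22, and the cause was not tested. Of 207 named genes, 149 kept direction and call under each of 22 alternatives that could be fitted to them. Without mouse replicate 3, ENG (1.93), IER2 (1.80) and ACAA2 (-1.98), a fatty acid oxidation enzyme, came to lie within 4-fold. The list medians that changed sign with scaling or length were those of granulocyte genes, D cyclins and their inhibitors, glycolysis, fatty acid oxidation and ATF4 targets. Depth limits genes with few counts in a library, such as PROCR with counts of 5, 6 and 8 in mouse, whose differences are the least precise.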

Other observations

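The mouse table leaves further genes unnamed whose identifiers carry the symbol of a human gene in the GENCODE M21 annotation of the same build. Completing these symbols raised the matched genes from 9925 to 11995. This net gain of 2070 understates the genes added, since some of the first match, such as DDIT3, dropped out. Of 1995 added genes tested with the rest, 1800 were called higher in human and 3 higher in mouse. Over the 11905 genes tested in that fit the shares were 26.3% and 11.8%. Of the added genes tested, 1078 had at most 3 counts in every mouse library. These genes reach the comparison because the human table lists them, so their direction is in part fixed by how they were found. Bounds below take 3 counts per mouse library as the floor.

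Those named here were chosen after their values were seen. GAD1, the enzyme that makes the transmitter GABA, had 0 counts in each mouse library and 395, 395 and 404 TPM in the human libraries, at least 4801-fold higher. GABRE, a subunit of the GABA receptor, had counts of 6, 4 and 4 in mouse and 521, 513 and 523 TPM in human. FBLN2, a matrix protein, had 0 counts in each mouse library and 218, 227 and 216 TPM in human, at least 2216-fold higher. TIMP1, a matrix protease inhibitor like TIMP3, had counts of 1, 0 and 1 in mouse and 508, 535 and 542 TPM in human.

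S100A4, a calcium-binding protein of motile and myeloid cells, had 0 mouse counts and 1204, 1219.8 and 1227 TPM in human, but 51.7% of its mouse exons are shared. JUND, an AP-1 subunit, had 0 mouse counts and 247, 247 and 223 TPM in human, with 52.6% of its mouse exons shared. EGR3, a relative of EGR1, had counts of 1, 1 and 0 in mouse and 96.5, 89.6 and 90.6 TPM in human, and BHLHE40, a repressor induced by hypoxia and stimuli, counts of 10, 4 and 7 in mouse and 189, 195 and 195 TPM in human. MYL4, an embryonic myosin light chain, had counts of 12, 22 and 9 in mouse and 392, 399 and 408 TPM in human.

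Some symbols of the lists were paired with a gene in mouse only. H19, the maternally expressed RNA beside IGF2, measured 75.04, 73.2 and 71.6 TPM there. ACADL, a fatty acid dehydrogenase, measured 109, 114 and 128 TPM and MS4A2, a mast cell and basophil receptor chain, 9.80, 11.4 and 10.5 TPM. The B cell genes EBF1 and PAX5 stood at 0.845 ± 0.11 and 1.64 ± 0.29 TPM.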
